A study of Saccharomyces cerevisiae W303 with 28 samples.

Results

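Strong cohesin sites on the long chromosome arms of budding yeast are the subject here: 742 windows of 1 kb, out of 12447 windows on 16 chromosomes. They were chosen by signal in 1 library, the immunoprecipitate (IP) of Pk-tagged Scc1 from wild-type cells without a break. On chromosomes 2, 4, 7, 8, 10, 11, 13, 14, 15 and 16, windows over 50 kb from both ends and over 30 kb from the cohesin maximum of the chromosome were taken as candidates. The cohesin maximum was the highest running mean over 21 windows in the same library, and stands in for the centromere. Candidates also needed coverage of 0.25 to 4 times the median in the extract of HA wild type with a break, replicate 1. This left 7420 candidates, of which the top 10% are the strong windows, leaving 6678 other candidates.

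The series mapped Scc1 by chromatin immunoprecipitation and sequencing (ChIP-seq) in W303 yeast, 4 h after galactose addition, which induces a double-strand break on chromosome 5 at a cleavable site. The HA tag was used in cut cells of the genotypes rad17 pds5-AID, pds5-AID, rad17 and wild type (n = 2 libraries each), and in a wild-type strain with an uncleavable site (n = 1). The Pk tag gave 1 library each for rad17 cut, wild type cut, wild type cut but not given nocodazole, and wild type uncut. An untagged strain with a break gave the background (n = 1). All cells but 1 Pk culture received nocodazole, a microtubule drug that holds cells in mitosis. The pds5-AID allele is a degron whose extent of depletion is unknown here, as no label mentions auxin. The title of the HA no-break strain calls its site uncleavable while its treatment entry names break induction, and the title was followed. The mutants have no library without a break. Whether replicates were separate cultures is not labelled, and the p-values may thus reflect technical spread alone.

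Cohesin is a ring of Smc1, Smc3 and the kleisin Scc1 that holds sister chromatids together and extrudes DNA loops. In budding yeast it is loaded by Scc2/4 and gathers along the arms at places between convergently transcribed genes, where it forms sharp peaks. Pds5 binds the kleisin and takes part both in maintaining cohesion and in releasing the ring from DNA, and limits loop size. Rad17 is a subunit of the checkpoint clamp that is loaded at damaged DNA and, with the kinases Mec1 and Tel1, directs cohesin to a break. No gene and no base sequence was placed at any window, since the sources used here do not name the files' genome build.

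The strong windows were spread over all 10 chromosomes, from 37 on chromosome 8 to 132 on chromosome 4, or 8.25% to 10.9% of the candidates of a chromosome. Joined where at most 1 other window lay between them, they formed 454 sites. Of these, 197 held 1 strong window, 229 held 2, 25 held 3 and 3 held 4. The summits, the highest window of each site, were a median of 15 kb apart, with quartiles of 10 and 23 kb and a range of 3 to 91 kb over 444 gaps. In the library that chose them, the strong windows had a signal of 39.6 to 204.5, with a median of 64.2, against a median of 7.46 in the other candidates. They held 43.5% of the signal of all candidates. The last 2 windows inside the threshold had a signal of 39.573 and 39.568 in that library, and the first 2 outside had 39.461 and 39.362, so the limit cuts a continuous range.

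Levels are given as log2 of IP over extract, either on the calibrated scale or relative to the library median, where 0 is the typical window of that library and 1 is a doubling. At strong windows the median level relative to the library median was 2.05 and 2.28 in the HA rad17 pds5-AID libraries, 1.98 and 2.20 in pds5-AID, 2.61 and 2.61 in rad17, 2.45 and 2.64 in wild type with a break, and 2.90 without a break. The 4 libraries with pds5-AID were the lowest of the 9, and none overlapped the other 5. The Pk libraries stood at 2.57 in rad17, 2.44 in wild type with a break and 2.25 without nocodazole, and the library of the rule stood at 2.94. In the untagged library the median was 0.19. Strong windows were thus 4.52-fold to 8.93-fold above the other candidates in the 12 tagged libraries not used to choose them, 9.20-fold in the one used, and 1.15-fold in the untagged one. Of the strong windows, 78.0% to 94.1% were again in the top 10% of candidates by IP signal in those 12 libraries, against 22.0% in the untagged library. No strong window lay below the library median in any of the 13 tagged libraries.

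**Figure D1:**
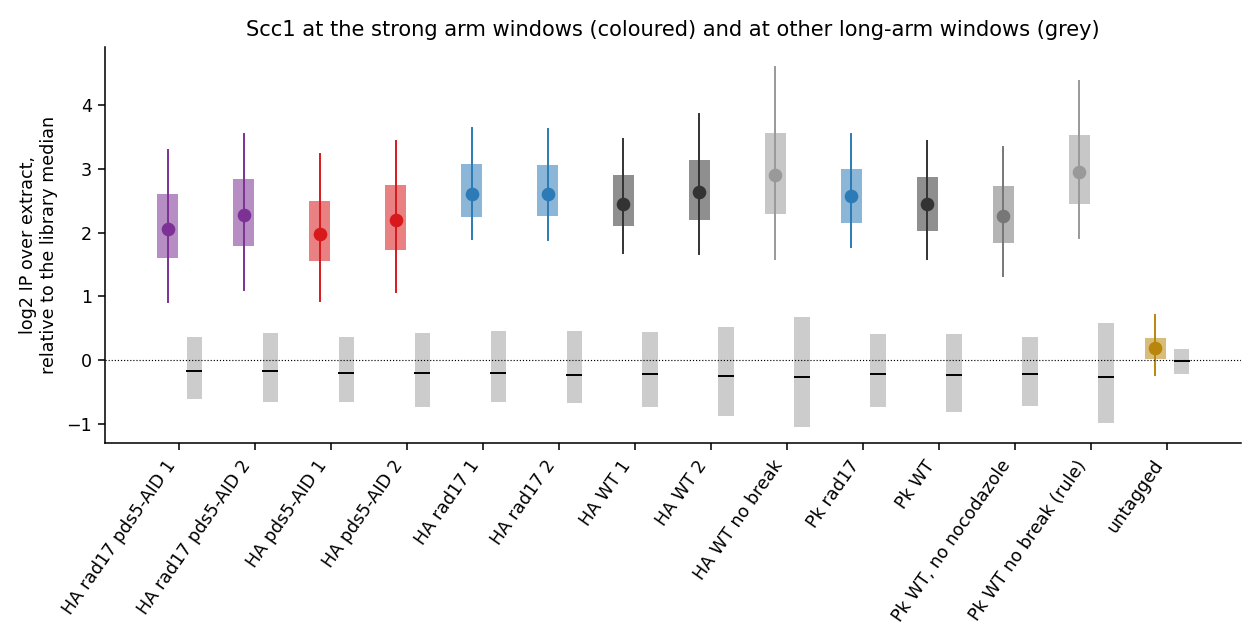
Level of Scc1 at strong arm windows in each IP library, as log2 of IP over extract relative to the library median on the y axis. Coloured points, boxes and lines are the median, quartiles and 5th to 95th percentiles over 742 strong windows, and grey boxes with a bar are the quartiles and median of the other candidates. The 4 pds5-AID libraries have medians of 1.98 to 2.28, the other 5 HA libraries 2.45 to 2.90, and the untagged library 0.19.

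At strong windows the median signal was 118 to 506 times the library's smallest value above 0 in the 9 HA libraries. This multiple was 282 in Pk rad17, 291 in Pk wild type with a break, 72.9 without a break and 11.6 with a break but without nocodazole. At single windows the multiples are not whole numbers, so they are not read counts. The 3 extracts of both no-break strains and of HA wild type with a break, replicate 2, were uneven along the genome, and at strong windows their median coverage was 0.88 to 0.93 of the library median, against 0.97 to 1.01 in the other 11. Across the 742 windows, replicates correlated at Pearson's r = 0.966 in rad17 pds5-AID, 0.961 in pds5-AID, 0.942 in rad17 and 0.794 in wild type, where 1 of the extracts is uneven. These r describe windows, which are not independent replicates. Replicate 2 was above replicate 1 at strong windows in all 4 HA groups with 2 libraries, on the calibrated scale by a median of 0.45 in rad17 pds5-AID, 0.71 in pds5-AID, 0.32 in rad17 and 0.31 in wild type.

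The 5 highest sites show what a strong site looked like. The summit on chromosome 11 (111001 to 112000) had a deposited IP signal of 102 and 146 in rad17 pds5-AID, 144 and 226 in pds5-AID, 195 and 242 in rad17, 249 and 282 in wild type with a break, and 288 without a break. The untagged signal there was 3.36. Relative to the library median its level was 4.12 and 4.42 in rad17 pds5-AID, 3.77 and 4.20 in pds5-AID, 4.25 and 4.45 in rad17, 4.07 and 4.29 in wild type with a break, and 4.79 without a break. The lowest of the 9 was a pds5-AID library and the highest the one without a break. The summit on chromosome 15 (132001 to 133000) gave 3.62 and 4.23 in pds5-AID against 3.87 and 4.42 in wild type. The one on chromosome 7 (554001 to 555000) gave 3.96 and 3.81 in pds5-AID against 3.43 and 3.36 in wild type, so there the pds5-AID libraries were the higher ones. The other two, on chromosome 2 (431001 to 432000) and chromosome 4 (492001 to 493000), had levels of 3.23 to 3.45 in pds5-AID and 3.38 to 3.54 in wild type. At the summits on chromosomes 2, 4, 11 and 15 the ranges of the pds5-AID and wild-type libraries overlapped.

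With Pds5 tagged by the degron, Scc1 at strong sites was lower than in wild type, and lower by more than elsewhere on the arms. The strong windows were chosen in a wild-type library. Windows strong only with pds5-AID are thus left out, and the choice may favour a larger deficit at the chosen ones. The median deposited signal at strong windows was 38.7 and 61.6 in pds5-AID, against 87.9 and 100.8 in wild type with a break. On the calibrated scale, 542 of the 742 strong windows (73.0%) fell and 0 rose (limma, 5 group means over the 9 HA libraries, Benjamini-Hochberg adjusted over 11638 windows, threshold 0.05). Of all windows tested, 34.9% fell and 0.0258% rose. The median difference was -1.02 at strong windows, a ratio of 0.492, and -0.53 at the other candidates, a ratio of 0.693. The count rested on 2 libraries: it was 226 without wild type replicate 2 and 185 without pds5-AID replicate 1. On each window's own residual spread 0 were called by limma, and 363 had an unadjusted p under 0.05.

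The deficit remained after each library was set to its own median. After that step, 267 strong windows (36.0%) fell and 5 rose in pds5-AID, where 13.4% of all windows fell and 8.52% rose. The median difference was -0.44 at strong windows and 0.05 at the other candidates, and 632 of the 742 strong windows were below 0. In the 742 candidates next in rank in the library of the rule the median was -0.41 and 35.7% fell, close to the strong windows. The middle of the strong windows ran from -0.75 to -0.15 (quartiles) and the whole range from -2.40 to 0.84. With the IP signal alone, which leaves the extracts out, 359 fell against 19.7% of all windows. The count of calls was 74 without pds5-AID replicate 1. In pds5-AID 47 and 28 strong windows were under 2-fold above their library median, against 0 and 2 in wild type with a break.

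The same difference was seen in cells without Rad17, in 4 libraries not shared with the pds5-AID and wild-type pair. The median deposited signal at strong windows was 26.5 and 36.5 in rad17 pds5-AID, against 65.8 and 79.7 in rad17. On the calibrated scale 672 strong windows (90.6%) fell and 0 rose, where 59.4% of all windows fell and 0.0172% rose. The median difference was -1.19 at strong windows and -0.73 at the other candidates. In levels relative to the library median, 255 strong windows (34.4%) fell and 3 rose, where 11.9% of all windows fell and 3.48% rose, and the medians were -0.43 and 0.03. In the candidates next in rank the median was -0.38 and 33.2% fell. With the IP alone 389 fell, against 20.2% of all windows. The calibrated count was 356 without rad17 replicate 2 and 316 without rad17 pds5-AID replicate 1, and the count of calls relative to the median was 125 and 119 without rad17 replicate 1 and 2 and 105 without rad17 pds5-AID replicate 1. In rad17 pds5-AID 45 and 27 strong windows were under 2-fold above the library median, against 1 and 1 in rad17.

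The windows called lower overlapped between the pairs. Of all strong windows, 36.0% fell in pds5-AID against wild type and 34.4% in rad17 pds5-AID against rad17, and the overlap over all windows was not computed. In all, 196 strong windows fell relative to the library median in both, which is 76.9% of those that fell in rad17 pds5-AID against rad17 and 73.4% of those that fell in pds5-AID against wild type. The difference had the same sign in 648 of the 742 windows, and was below 0 in both pairs in 593. In the single pairs 85.2% and 87.3% of strong windows were below 0, so much of the shared sign follows from the general fall. Across them the differences of the 2 pairs correlated at r = 0.81 for IP over extract and 0.94 for IP alone, as a description of windows. The term for an interaction of rad17 and pds5-AID called 0 strong windows by limma on the calibrated scale (4 at an unadjusted p under 0.05), where 0.0172% of all windows were called in either direction, and 0 relative to the library median (23 at an unadjusted p under 0.05). Its median was -0.22 on the calibrated scale and -0.04 relative to the library median, with a median standard error of 0.45 and 0.27 per window.

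**Figure D2:**
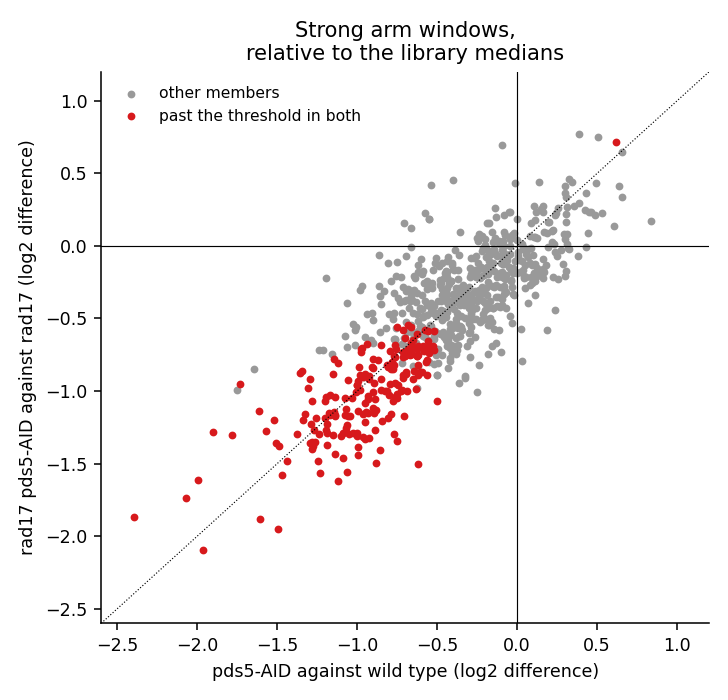
Difference in Scc1 level at each of the 742 strong windows, with pds5-AID against wild type on the x axis and rad17 pds5-AID against rad17 on the y axis, both as log2 relative to the library medians. Red points passed the threshold in both pairs (196 lower and 1 higher), the dotted line marks equal differences, and most points lie below 0 on both axes.

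In the 4 pds5-AID libraries the 6 windows that fell most had levels relative to the library median between 0.14 and 1.28. The largest calibrated fall in pds5-AID was on chromosome 16 (322001 to 323000), by 2.98 ± 0.32 on the log2 scale (SE, limma adjusted p = 5.32e-17). This SE is shared by all windows on the calibrated scale and is not the spread at this window. On each window's own spread, 12 of the 15 named windows gave a weaker result and 3 the same. The calibrated level at the chromosome 16 window was 3.46 and 4.64 in pds5-AID against 6.62 and 7.43 in wild type with a break. The deposited signal there was 11.6 and 21.1 in pds5-AID, against 109.5 and 116.0 in wild type with a break, and it was 12.5 and 16.8 in rad17 pds5-AID against 81.9 and 95.4 in rad17. Its level relative to the library median was 0.23 and 0.92 in pds5-AID against 2.67 and 3.27 in wild type, and the untagged level was 0.15. The window next to it (321001 to 322000) fell by 2.58, and a window on chromosome 11 (86001 to 87000) by 2.65. The largest falls in rad17 pds5-AID against rad17 were on chromosome 7 (113001 to 114000), by 2.86 (adjusted p = 6.97e-16), and its neighbour at 112001 to 113000, by 2.64, with one on chromosome 11 (87001 to 88000), by 2.71. The chromosome 7 window gave 8.69 and 11.7 in rad17 pds5-AID against 65.7 and 74.9 in rad17, and 14.5 and 22.8 in pds5-AID against 101 and 104 in wild type. The sites on chromosome 11 and chromosome 7 were thus low in all 4 pds5-AID libraries, with no overlap with the other 5 HA libraries.

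A few strong windows went the other way relative to the library median, chosen here after their values were seen. In pds5-AID the 5 that rose lay on chromosome 10 (123001 to 124000, by 0.84), chromosome 16 (181001 to 182000, by 0.64), chromosome 7 (98001 to 99000, by 0.62) and chromosome 2 (412001 to 413000, by 0.53, and 277001 to 278000, by 0.50). On the calibrated scale their differences were between -0.09 and 0.26, with none past the threshold. In rad17 pds5-AID against rad17 the 3 that rose were on chromosome 8 (153001 to 154000, by 0.77) and chromosome 7 (551001 to 552000, by 0.75, and again 98001 to 99000, by 0.72). The window on chromosome 7 at 98001 had a relative level of 2.75 and 2.91 in rad17 pds5-AID and 2.56 and 2.84 in pds5-AID, against 2.06 and 2.16 in rad17 and 1.98 and 2.18 in wild type. The one on chromosome 10 had 2.50 and 2.32 in pds5-AID against 1.56 and 1.59 in wild type with a break, but 2.42 and 2.68 in rad17 and 2.76 in Pk wild type, while HA without a break stood at 1.71 and Pk without nocodazole at 1.65. The extract of wild type replicate 2 stood at 1.65 of its median there.

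**Figure D3:**
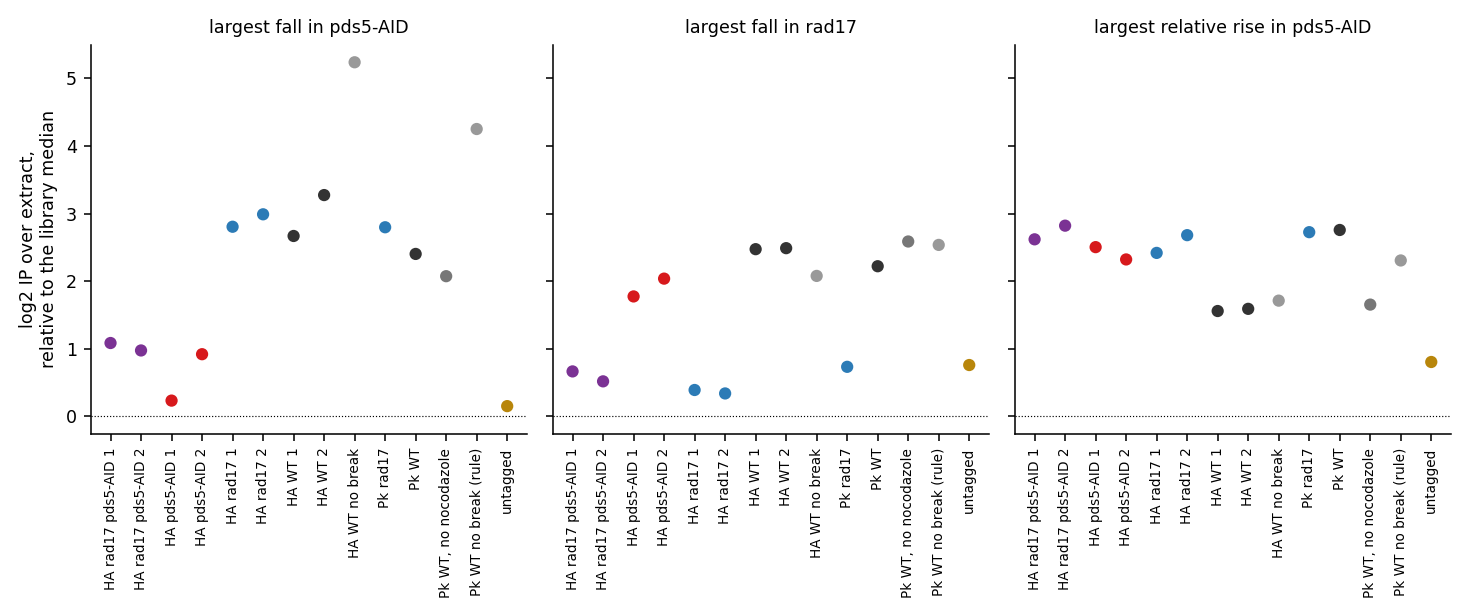
Level of Scc1 in each of the 14 IP libraries at 3 single strong windows, as log2 of IP over extract relative to the library median on the y axis. Left, the largest fall in pds5-AID, with all 4 pds5-AID libraries between 0.23 and 1.09. Middle, the largest fall in rad17, with all 5 rad17 libraries of both tags between 0.34 and 0.73. Right, the largest relative rise in pds5-AID, with HA wild type at 1.56 and 1.59 and pds5-AID at 2.50 and 2.32.

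Across the arms the fall was graded with signal in the library of the rule, but did not grow further among the strong windows. That library comes from wild-type cells, so the ranking may favour such a grade, and how far it does was not tested. Break against no break, a comparison within wild type, had medians of 0.22 in group 1, -0.15 in group 9 and -0.29 in group 10. The candidates were divided into 10 rank groups by the Pk no-break signal, of which group 10 holds the strong windows. The median difference of pds5-AID against wild type, relative to the library median, was 0.25 in group 1, 0.05 in group 6, -0.19 in group 8, -0.41 in group 9 and -0.44 in group 10. In rad17 pds5-AID against rad17 it was 0.12, 0.05, -0.19, -0.38 and -0.43 in the same groups. Group 9 was thus close to the strong windows, which do not stand apart from it. Among the strong windows, the 247 with the lowest signal in the library of the rule had a median of -0.54 with 101 that fell, the middle 248 had -0.45 with 98, and the 247 with the highest had -0.39 with 68.

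**Figure D4:**
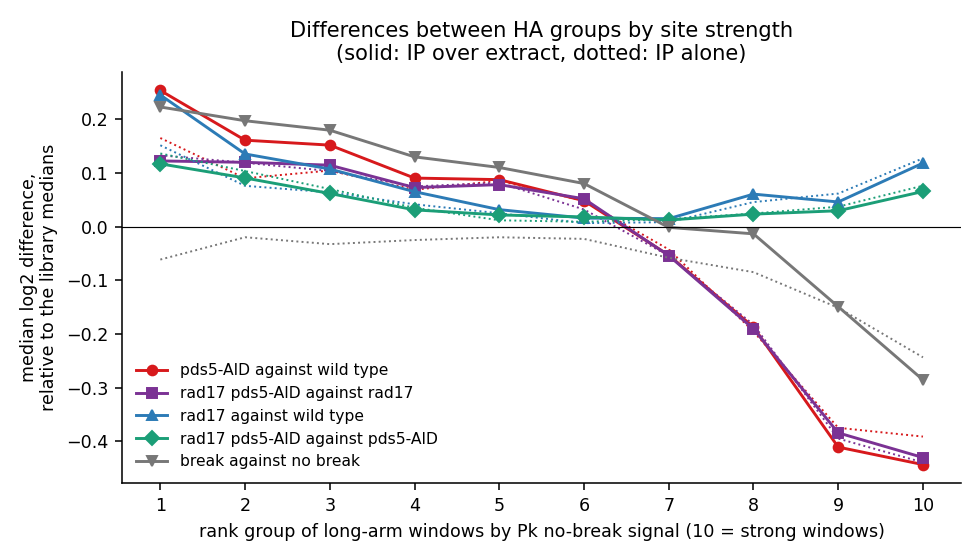
Median log2 difference between HA groups, relative to the library medians, on the y axis, for 10 rank groups of the long-arm candidates by Pk no-break signal on the x axis, where group 10 holds the strong windows. Solid lines are IP over extract and dotted lines IP alone. Both pds5-AID comparisons stand at 0.25 and 0.12 in group 1 and at -0.44 and -0.43 in group 10, while both rad17 comparisons stay above 0. Break against no break, within wild type, stands at 0.22 in group 1 and -0.29 in group 10.

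Lone strong windows had a larger median difference than those of broader sites, though the difference between the classes was not tested. Among the 197 strong windows that formed a site alone, 100 (50.8%) fell in pds5-AID relative to the library median, with a median of -0.59. Among the 545 in sites of 2 or more, 167 (30.6%) fell, with a median of -0.41. In rad17 pds5-AID against rad17 the same counts were 87 of 197 and 168 of 545, with medians of -0.57 and -0.38. The lone windows also had a lower signal in the library of the rule (median 55.7 against 66.3), and the parts played by size and signal were not told apart. The 3 sites of 4 windows differed among themselves: the summit on chromosome 7 at 294001 to 295000 had levels of 2.28 and 2.64 in pds5-AID against 3.43 and 3.42 in wild type, whereas the one at 257001 to 258000, on the same arm, had 3.05 and 3.29 against 2.60 and 2.87. The one on chromosome 8 (483001 to 484000) had levels of 3.0023 and 3.227 in pds5-AID against 3.0656 and 3.5486 in wild type. There the ranges of the pds5-AID and wild-type libraries overlapped.

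The share that fell also differed with position on the arm, again without a test between classes. At 30 to 60 kb from the cohesin maximum 15 of 65 strong windows (23.1%) fell in pds5-AID, with a median of -0.26, and at 60 to 100 kb 16 of 67 (23.9%), with -0.38. At 100 to 200 kb 66 of 164 (40.2%) fell, with a median of -0.47, and beyond 200 kb 170 of 446 (38.1%), with -0.46. In rad17 pds5-AID against rad17 the counts in the same classes were 9, 18, 60 and 168, with medians of -0.20, -0.38, -0.50 and -0.46. The other candidates had medians of 0.23, 0.10, 0.05 and 0.02 in pds5-AID, so the gradient was not confined to the strong windows.

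Relative to the library median, the peaks with pds5-AID were lower at the summit and higher at 2 kb from it. The calibrated library medians were 3.23 and 3.72 in pds5-AID against 3.95 and 4.15 in wild type with a break. They were 2.64 and 2.88 in rad17 pds5-AID against 3.37 and 3.67 in rad17. The rise at 2 kb is thus relative and not one in calibrated level. Summits were placed in a wild-type library, and whether peaks moved with pds5-AID was not tested. At summits the median level relative to the library median was 2.16 and 2.37 in rad17 pds5-AID and 2.09 and 2.31 in pds5-AID, against 2.83 and 2.84 in rad17 and 2.67 and 2.87 in wild type with a break. At 1 kb it was 1.11 and 1.27 in rad17 pds5-AID and 1.09 and 1.21 in pds5-AID, against 1.49 and 1.49 in rad17 and 1.36 and 1.44 in wild type. At 2 kb the order was turned round: 0.27 and 0.31 in rad17 pds5-AID and 0.28 and 0.30 in pds5-AID, against 0.21 and 0.18 in rad17 and 0.16 and 0.08 in wild type. At 3 kb the levels were -0.04 and -0.04 in pds5-AID against -0.21 and -0.29 in wild type. The summit window held a median of 23.9% and 25.1% of the signal over extract in the 11 windows around it in rad17 pds5-AID and 24.0% and 26.1% in pds5-AID, against 31.6% and 31.7% in rad17 and 30.5% and 32.4% in wild type with a break, with no overlap. It was 32.0% without a break and 10.4% in the untagged library.

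**Figure D5:**
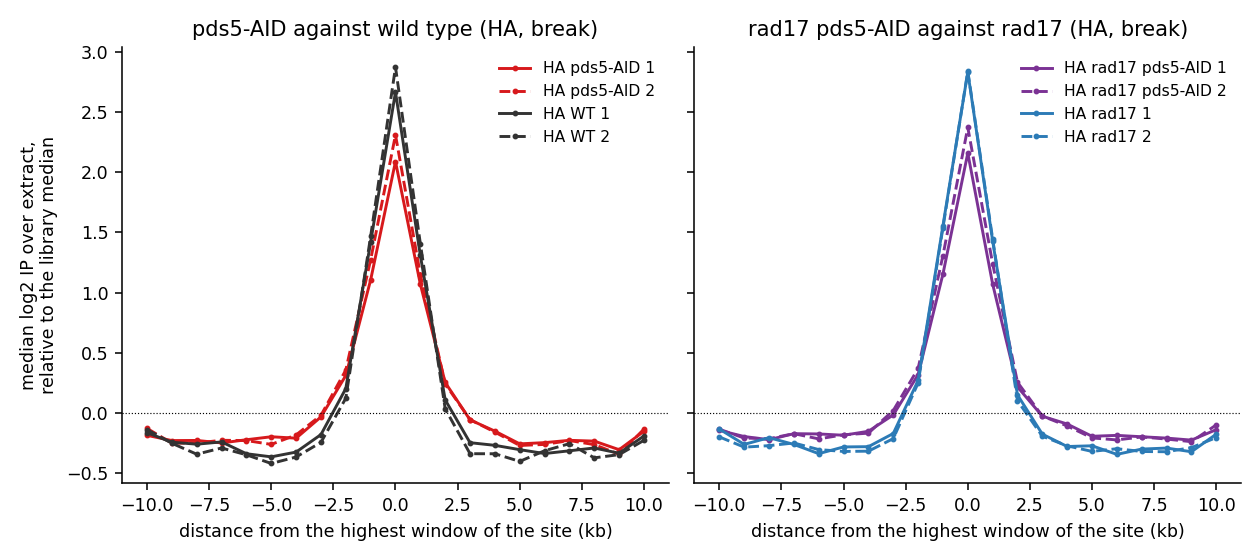
Median level of Scc1 around the summits of the 454 sites, as log2 of IP over extract relative to the library median on the y axis and distance in kb on the x axis. There is 1 line per HA library with a break. With pds5-AID the summits are at 2.09 to 2.37, against 2.67 to 2.87 in the rad17 and wild-type libraries, and the lines cross between 1 and 2 kb.

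Relative to the library median, more of the windows beside the sites rose than farther out, a difference between classes that was not tested. Of the 2362 other candidates at 2 to 4 kb from a summit, 328 (13.9%) rose and 89 fell in pds5-AID relative to the library median, with a median of 0.20. Over 4 kb from every summit, 177 of 3684 (4.80%) rose and 477 fell, with a median of -0.02. In rad17 pds5-AID against rad17, 144 rose and 93 fell at 2 to 4 kb, with a median of 0.12, and 74 rose and 327 fell farther out. The calibrated library median was 2.64 and 2.88 in rad17 pds5-AID and 3.23 and 3.72 in pds5-AID. It was 3.37 and 3.67 in rad17, 3.95 and 4.15 in wild type with a break, and 0.99 in the untagged library. In rad17 the library medians were near those of pds5-AID and the summit shares near those of wild type. The rad17 pds5-AID libraries had the lowest medians of the HA libraries. Whether library level bears on the summit share was not tested.

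In rad17 cells the strong sites were lower by about as much as the rest of the arms. The median deposited signal was 65.8 and 79.7 in rad17, against 87.9 and 100.8 in wild type with a break. On the calibrated scale 31 of the 742 (4.18%) fell and 0 rose, where 6.56% of all windows fell and 0.0172% rose. The median difference was -0.41 at strong windows and -0.46 at the other candidates. Relative to the library median 1 strong window fell and 0 rose, where 0.172% of all windows were called in either direction, and the medians were 0.12 and 0.08. The 31 windows had a median coverage of 0.44 in the uneven extract of wild type replicate 2, against 0.95 at the other strong windows, and with the IP alone 1 of 742 fell. Leaving out 1 library gave 1 call without wild type replicate 2 or rad17 replicate 1, 4 without rad17 replicate 2 and 112 without wild type replicate 1. It was 79 without either pds5-AID library and 19 without either rad17 pds5-AID library. Relative to the median, 78 were called without wild type replicate 1.

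A single strong window was low in each of the 5 libraries labelled rad17. On chromosome 15 (1029001 to 1030000) the deposited signal was 7.93 and 9.29 in rad17 pds5-AID and 11.3 and 15.6 in rad17, against 36.8 and 54.8 in pds5-AID and 97.3 and 100.4 in wild type with a break. The Pk libraries gave 12.8 in rad17 against 60.9 in wild type with a break, so all 5 rad17 libraries were below all 8 other tagged ones. It fell by 2.65 ± 0.32 in rad17 (SE, limma adjusted p = 9.96e-13), by 2.12 relative to the library median (adjusted p = 0.000194) and by 2.35 with the IP alone. In rad17 pds5-AID it fell by 2.03 against pds5-AID (limma adjusted p = 9.22e-08). The SE is again the one shared by all windows, and on each window's own spread 0 strong windows were called in rad17 on the calibrated scale. Its relative level in the rad17 libraries, 0.34 to 0.73, was at or under the untagged 0.76, and the extracts there kept 0.73 to 0.95 of their medians. RAD17 itself is a gene of the right arm of chromosome 15. Whether this window lies at the altered gene was not tested, since no gene could be placed. The next falls, on chromosome 4 (1384001 to 1385000, by 1.48) and chromosome 16 (743001 to 744000, by 1.46), had wild type replicate 2 extracts at 0.22 and 0.11 of the median. With the IP alone these windows differed by -0.44 and -0.42 on the calibrated scale, and by 0.05 and 0.08 relative to the median.

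Adding the rad17 mutation to pds5-AID lowered the strong sites in step with the rest of the arms. On the calibrated scale 156 strong windows fell and 0 rose in rad17 pds5-AID against pds5-AID, where 28.1% of all windows fell and 0.0172% rose. The median difference was -0.65 at strong windows and -0.67 at the other candidates, and 742 of 742 were below 0. Relative to the library median 1 fell, the chromosome 15 window above, where 0.361% of all windows were called in either direction, and the medians were 0.07 and 0.04. After that window the largest calibrated falls were both on chromosome 7 (639001 to 640000, by 1.30, and 274001 to 275000, by 1.17), and neither passed relative to the library median. The calibrated count depended on single libraries: it was 1 without pds5-AID replicate 2 or rad17 pds5-AID replicate 1, 17 without rad17 pds5-AID replicate 2, 19 without either rad17 library and 678 without pds5-AID replicate 1.

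The comparison of cells with and without a break at these sites, none of which is on the cut chromosome, gave different answers with and without division by the extract. The median deposited signal was 87.9 and 100.8 with a break, against 94.9 without. On the calibrated scale 59 strong windows (7.95%) fell and 0 rose, where 3.59% of all windows fell and 1.18% rose, and the median difference was -0.16 at strong windows and 0.21 at the other candidates. Set to the library medians, 163 fell and 2 rose, where 12.1% and 5.96% of all windows did, with medians of -0.29 and 0.08. The 59 windows had a median coverage of 0.24 in the no-break extract, against 0.93 at the other strong windows. With the IP signal alone 0 were called by limma on the calibrated scale, 1 had an unadjusted p under 0.05, and 2 fell relative to the library median, where 0.215% of all windows did. On that last scale the median was -0.24 at strong windows and -0.05 at the other candidates, and 694 of 742 were below 0. The windows were picked for high signal in the Pk no-break library, which the HA no-break library resembled (r = 0.944 for IP alone). The choice may thus favour values below 0 in this comparison, and nothing is read from them. The calibrated count was 2 without wild type replicate 1 and 97 without wild type replicate 2, and the no-break side is 1 library, taken to have the same spread as the replicated groups.

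The largest falls with a break were on chromosome 2 (407001 to 408000, by 2.31), chromosome 16 (322001 to 323000, by 2.14) and chromosome 4 (509001 to 510000, by 2.02). At each the no-break extract stood at 0.15 of its median, and with the IP alone the differences were -0.21, -0.04 and -0.26. The 2 windows that rose relative to the library median, chromosome 15 (767001 to 768000) and chromosome 4 (795001 to 796000), both by 0.69, had no-break extracts at 1.25 and 1.46 and differed by 0.07 and 0.12 with the IP alone on that scale.

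The Pk libraries have 1 library per group and no test. In Pk rad17 against Pk wild type with a break, the median difference at strong windows was -0.16 on the calibrated scale and 0.13 relative to the library median, against -0.24 and 0.05 at the other candidates. Relative to the library median 9 strong windows were over 1.5-fold higher and 1 lower, where 3.40% of all windows were higher and 1.10% lower. With a break, Pk wild type with nocodazole was above the library without it by a median of 0.16 relative to the library median, against -0.02 at the other candidates. There 101 strong windows were past 1.5-fold in either direction, 92 of them higher, where 27.9% of all windows were past it in either direction. In the library without nocodazole the median signal at strong windows was only 11.6 times its smallest value above 0. Pk wild type with a break against no break gave 0 higher and 307 lower, where 11.5% and 18.3% of all windows were. That pair uses the library that chose the windows, so nothing is read from it.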

How the data were processed

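Read coverage (signal) was deposited by the authors in windows of 1 kb for 14 IP and 14 extract libraries. Per the series description the ChIP was calibrated with Candida glabrata, and the submitters' processing notes list Bowtie2, SAMtools, bedtools and MACS2 without version or role. No source used here names a genome build. Extracts had a smallest value above 0 of 1, so they are unscaled, and each was divided by its own median. The level of a window is log2 of IP over extract with a pseudocount of 5% of the library median in both terms, so folds of low windows are understated. Kept were windows whose relative extract averaged 0.25 to 4 across the 9 HA libraries (11638 of 12447, with all 742 strong windows and 6672 other candidates). Values relative to the library median have the median over kept windows subtracted. This shifted the median of all windows from -0.56 to 0.02 in pds5-AID against wild type, from -0.44 to 0.09 in rad17 against wild type, from -0.67 to 0.04 in rad17 pds5-AID against pds5-AID, from -0.78 to -0.02 in rad17 pds5-AID against rad17, and from 0.18 to 0.05 in break against no break.

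The 9 HA libraries were fitted with limma (version 3.58.1, R 4.3.3), 5 group means and 4 residual degrees of freedom, with Benjamini-Hochberg adjustment over 11638 windows and a threshold of 0.05. The prior degrees of freedom were infinite on the calibrated scale and 8.52 relative to the library median. The fit was tested on simulated data. The plan fixed 6 comparisons among HA groups. Alternatives were the IP alone, other pseudocounts and filters, each window's own spread (an ordinary t-test), a replicate block, libraries left out, and other limits for a strong window. Values relative to the library median under these alternatives, and the IP alone relative to the median, were added after seeing the data. Named windows are the 5 highest sites, the sites with most windows, the 3 largest falls of each comparison and, chosen after their values were seen, the calls relative to the library median where there were 5 or fewer. The strong windows and all lists were chosen with earlier results of these data known. Counting intervals were not computed, since window values are coverage and not independent reads.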

Additional observations from a re-analysis of the deposited data

How the results depend on the processing

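Over the 742 strong windows and 6 comparisons, the other settings moved counts more than medians. Counts printed in this section without a share over all windows are not read as particular to the strong windows. With the IP signal alone, limma called 0 in break against no break, 1 in rad17 against wild type and 460 in rad17 pds5-AID against pds5-AID. The 460 are 62.0% of the strong windows, where 66.7% of all windows fell. In rad17 against wild type 1.19% of all windows fell. Centred on the library median, the calls were 165, 1, 272, 1 and 258 in break against no break, rad17 and pds5-AID against wild type, and rad17 pds5-AID against pds5-AID and against rad17. With the IP alone and centred they were 2 in break against no break, 3 in rad17, 1 in rad17 pds5-AID against pds5-AID and 400 in rad17 pds5-AID against rad17. On each window's own spread, calls were 0 in all calibrated comparisons except rad17 pds5-AID against rad17, with 71. These are 9.57% of the strong windows, near the 9.06% of all windows that fell. In the order given above the counts at an unadjusted p under 0.05 were 18, 14, 363, 82 and 480, and 3 for the interaction. A pseudocount of 20% gave 11 in break against no break and 332 in rad17 pds5-AID against pds5-AID, where 1% gave 81.

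Taking the top 5% of candidates (371 windows) or the top 20% (1484) gave 36 and 102 calls in break against no break, 8 and 85 in rad17, 258 and 1036 in pds5-AID, 62 and 377 in rad17 pds5-AID against pds5-AID, and 336 and 1292 against rad17. Relative to the library median these limits gave 88 and 304 in break against no break, 120 and 552 in pds5-AID and 111 and 516 in rad17 pds5-AID against rad17, and 0 at the top 5% in rad17. Ranking candidates by IP over extract shared 593 windows (79.9%) with the strong ones. It gave 103 calibrated calls in break against no break and 94 in rad17, and relative to the median 249 calls and a median of -0.51 in break against no break. Other settings relative to the library median gave 2 (IP alone) and 0 (own spread) in break against no break, 57 (own spread) in pds5-AID, 400 (IP alone) and 74 (own spread) in rad17 pds5-AID against rad17, and 3 (IP alone), 0 (own spread) and 4 (replicate block) in rad17. On own spread, 2.99% of all windows fell and 1.43% rose in pds5-AID. In rad17 pds5-AID against rad17 3.74% fell and 0.96% rose.

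Medians changed sign with centring in rad17 against wild type, to 0.12 and, with the IP alone, 0.13, and in rad17 pds5-AID against pds5-AID, to 0.065 and 0.076. In pds5-AID against wild type the median was -0.44 centred and -0.39 with the IP alone and centred, in rad17 pds5-AID against rad17 -0.43 and -0.44, and in Pk break against no break -0.49 centred. The windows on chromosome 4 at 1384001 and chromosome 16 at 743001 differed in rad17 by 0.054 and 0.076 with the IP alone and centred, by -0.44 and -0.42 with the IP alone, and by -0.94 and -0.93 centred. The share of strong windows in the top 10% of the other HA libraries had a median of 88.9%, and 79.2% when ranked by IP over extract. The causes were not tested.

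Without 1 library, calls were 2 to 97 in break against no break, 1 to 112 in rad17, 185 to 665 in pds5-AID, 1 to 678 in rad17 pds5-AID against pds5-AID, 316 to 689 against rad17 and 0 to 0 for the interaction. The medians ran from -0.29 to -0.0033, -0.59 to -0.26, -1.37 to -0.68, -0.99 to -0.29, -1.42 to -0.98 and -0.56 to 0.14. Relative to the library median, calls were 115 to 285 in break against no break, 1 to 78 in rad17, 74 to 364 in pds5-AID and 105 to 357 in rad17 pds5-AID against rad17, and the medians ran from -0.32 to -0.23, 0.066 to 0.17, -0.55 to -0.35 and -0.53 to -0.35. Of 15 named windows, 5 missed the threshold without 1 library.

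Replicate numbers are shared between groups, but nothing ties same-numbered libraries to one culture or day. Over windows, replicate differences of 2 groups correlated at 0.084 to 0.34. Replicate 2 was above replicate 1 at strong windows in all 4 groups, by 0.31 to 0.71. With the replicate block, calls were 279 in rad17, 670 in pds5-AID, 666 in rad17 pds5-AID against pds5-AID and 723 against rad17, and 0 for the interaction.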

Other observations

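Fall and chromosome were compared for the pds5-AID pairs. The median difference at strong windows relative to the library median was below 0 on each of the 10 chromosomes in both pairs. In pds5-AID against wild type it ran from -0.29 on chromosome 8 (37 windows) to -0.50 on chromosome 16 (83 windows). In rad17 pds5-AID against rad17 it ran from -0.30 on chromosome 10 (61 windows) to -0.50 on chromosome 7 (96 windows). The order of the chromosomes was not tested.

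The no-break patterns of both tags were alike at strong windows, at r = 0.921 for IP over extract and 0.944 for IP alone across 742 windows, and their extracts correlated at 0.927. The Pk library of this pair chose the windows, so this is a description. The 3 highest windows of the HA no-break library, on chromosome 13 (469001 to 470000, 5.85), chromosome 16 (742001 to 743000, 5.83) and chromosome 15 (189001 to 190000, 5.71), had extracts at 0.14 to 0.19 of the median, and its 3 lowest, at 1.03 to 1.10, had extracts at 1.52 to 1.82.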
